A study of Mus musculus with 6 samples.

Results

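The histone genes measured on these arrays numbered 44 of 19938 genes with a probe set of their own. They were found by symbol: 31 carried a current symbol of the histone series (H1f, H3f, H2ac, H2bc, H3c or H4c) and 13 carried an older one (Hist1h, Hist2h, Hist3h, Hist4h or H2af), and a gene with several probe sets was read from the one with the widest interquartile range across the 6 arrays. Of the 44, 27 were replication-dependent histone genes of the Hist clusters, 12 were variant histone genes, 3 were cluster genes known from testis (H1f6, H2ac1 and H2bc1) and 2 were pseudogenes (H2bu1-ps and Macroh2a3).

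RAW264.7 is a mouse macrophage line derived from a virus-induced tumour. All 6 samples were this line, plated in wells and collected 18 hours after transfection. In 3 samples (control) the cells received negative control mimics and in the other 3 (miR-342-3p) they received miR-342-3p mimics, short synthetic RNAs that stand in for the mature microRNA. Total RNA was labelled with a whole-transcript kit and hybridised to 1 array per sample, and values are deposited RMA values on a log2 scale (background-corrected, quantile-normalised and summarised over the probes of a set). The study's text describes the replicates as independent experiments, while the labels only number them and do not say which control and mimic array came from one experiment. The 3 control arrays correlated at 0.998 to 0.999 with each other over the 19938 genes. Among the mimic arrays miR-342-3p replicate 3 lay closest to the controls, at 0.996 with each. Mimic replicates 1 and 2 correlated at 0.985 to 0.988 with the controls and at 0.991 with each other. Replicate 3 correlated at 0.993 and 0.992 with them. Results are also given without replicate 3 where its removal changed a call. Because a whole well was measured, fewer cells in S phase and less histone mRNA per cell cannot be told apart.

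Histones are the proteins around which DNA is wound. The core histones H2A, H2B, H3 and H4 form the nucleosome, and the linker histone H1 binds where DNA enters and leaves it. Replication-dependent histone genes lie in clusters, have no introns, and yield mRNAs that end in a stem-loop in place of a poly(A) tail. These mRNAs accumulate while DNA is copied and are degraded when copying stops. Variant histones come from single genes, mostly with polyadenylated mRNAs, that are made through the whole cell cycle, and they mark particular chromatin, such as promoters or heterochromatin.

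The mature microRNA that the mimic stands for is shown because its seed, the stretch that pairs with target mRNAs, defines the treatment. It is encoded at chr12:108658680-108658702 on the plus strand of GRCm38.p6, the sequence is RefSeq's, and the capitals mark the seed, bases 2 to 8.
mmu-miR-342-3p: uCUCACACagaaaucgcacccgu

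The upstream sequences of 4 histone genes are shown because their probe sets carry the results below: H1f1, H2az1 and H2az2 were the members that fell, and H1f5 is the linker histone gene that stood beside H1f1 without passing the threshold. Each sequence is the 250 bases before the RefSeq start of the gene in GRCm38.p6. H1f1 is read from chr13:23763418-23763667 on the plus strand and H1f5 from chr13:21780626-21780875 on the minus strand. H2az1 is read from chr3:137864237-137864486 on the plus strand and H2az2 from chr11:6444444-6444693 on the minus strand. Capitals mark matches, on either strand, to the TATA box TATAAA, the CCAAT box, the octamer ATTTGCAT of H2B promoters, the string AAACACA known from H1 promoters, or the E2F-type strings TTTCCCGC and TTTGGCGC, none of which overlapped here.
H1f1: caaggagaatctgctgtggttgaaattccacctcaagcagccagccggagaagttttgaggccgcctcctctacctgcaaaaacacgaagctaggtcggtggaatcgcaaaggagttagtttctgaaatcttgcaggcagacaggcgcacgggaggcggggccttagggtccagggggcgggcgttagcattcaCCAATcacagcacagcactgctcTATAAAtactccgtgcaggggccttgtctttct
H1f5: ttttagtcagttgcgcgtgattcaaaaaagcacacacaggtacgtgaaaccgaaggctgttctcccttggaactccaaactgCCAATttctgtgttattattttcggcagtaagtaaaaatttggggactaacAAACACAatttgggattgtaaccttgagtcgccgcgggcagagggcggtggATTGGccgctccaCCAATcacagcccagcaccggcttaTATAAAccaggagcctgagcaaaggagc
H2az1: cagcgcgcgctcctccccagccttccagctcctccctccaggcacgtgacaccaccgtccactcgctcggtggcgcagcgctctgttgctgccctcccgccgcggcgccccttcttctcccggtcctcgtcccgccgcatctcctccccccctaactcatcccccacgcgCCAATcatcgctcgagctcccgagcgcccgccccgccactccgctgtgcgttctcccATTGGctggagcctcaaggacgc
H2az2: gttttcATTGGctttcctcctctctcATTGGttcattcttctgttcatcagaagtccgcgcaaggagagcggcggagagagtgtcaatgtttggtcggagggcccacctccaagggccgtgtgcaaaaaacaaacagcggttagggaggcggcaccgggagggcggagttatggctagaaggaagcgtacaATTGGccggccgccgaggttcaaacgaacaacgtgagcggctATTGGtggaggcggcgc

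H1f1 held TATAAA 33 bases and CCAAT 56 bases before its start. H1f5 held the same pair at 28 and 53 bases, with AAACACA at 117 bases and 2 further CCAAT matches. H2az1 held 2 and H2az2 held 4 CCAAT matches, and neither held TATAAA. Among the 23 replication-dependent genes with an entry, 13 (56.5%) held TATAAA, 18 (78.3%) held CCAAT and 7 (30.4%) held ATTTGCAT, against 14.3%, 37.5% and 1.81% of the 27025 genes in the table. Among the 11 variant genes with an entry, 6 (54.5%) held CCAAT and 0 held TATAAA or ATTTGCAT. AAACACA was present in 5 replication-dependent genes (21.7%) and 1 variant gene (9.09%), against 7.2% of all genes. The E2F-type strings were in 0 of the 37 members with an entry. They are rare in the whole table, TTTCCCGC in 1.03% and TTTGGCGC in 0.485% of genes, so 0 of 37 says little. Without an entry were H2bc4, H2bc21, H3c7, H4c14, H2ax and the pseudogenes. A match describes these letters in this window and is not a site.

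Of the 27 replication-dependent histone genes, 1 was lower with the mimic and 0 were higher at a false discovery rate (FDR) under 0.1 by limma. Over all 19938 genes, 7.42% were called lower and 4.14% higher. At an unadjusted p under 0.05, 3 of the 27 were lower and 0 higher, beside 2584 and 2502 of all genes. The methods' t-test is a 2-tailed test that the study names for comparisons of 2 groups in general and not for these arrays. It gave 2 lower and 2 higher at its own unadjusted threshold, beside 1955 and 2080 of all genes. With the Benjamini-Hochberg adjustment added here it gave 0 in either direction, beside only 22 lower and 26 higher of all genes. The class had 14 members below and 13 above 0, beside 7075 and 12863 of all genes. Its median log2 fold change (miR-342-3p minus control) was −0.02, beside 0.07 over all genes. Among the 9969 genes above the median level the all-gene median was −0.0241, and that of the 24 members there was −0.006067. The 3 mimic arrays lay wholly outside the range of the 3 control arrays for 7 of the 27 members, 3 lower and 4 higher. Over all genes this held for 36.9%, with 3083 lower and 4265 higher. For 22 of the 27 members the 95% interval of the log2 fold change lay above −0.5 (81.5%, beside 88.7% or 17693 of all genes), and the 5 others were H1f1, H1f5, H2ac4, H2bc21 and H3c15. The count of lower genes was 0 without control replicate 1 or 3, 5 without miR-342-3p replicate 2 and 2 without miR-342-3p replicate 3. In the same order, the lower count over all genes was 102, 140, 1830 and 2422, in place of 1479.

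**Figure D1:**
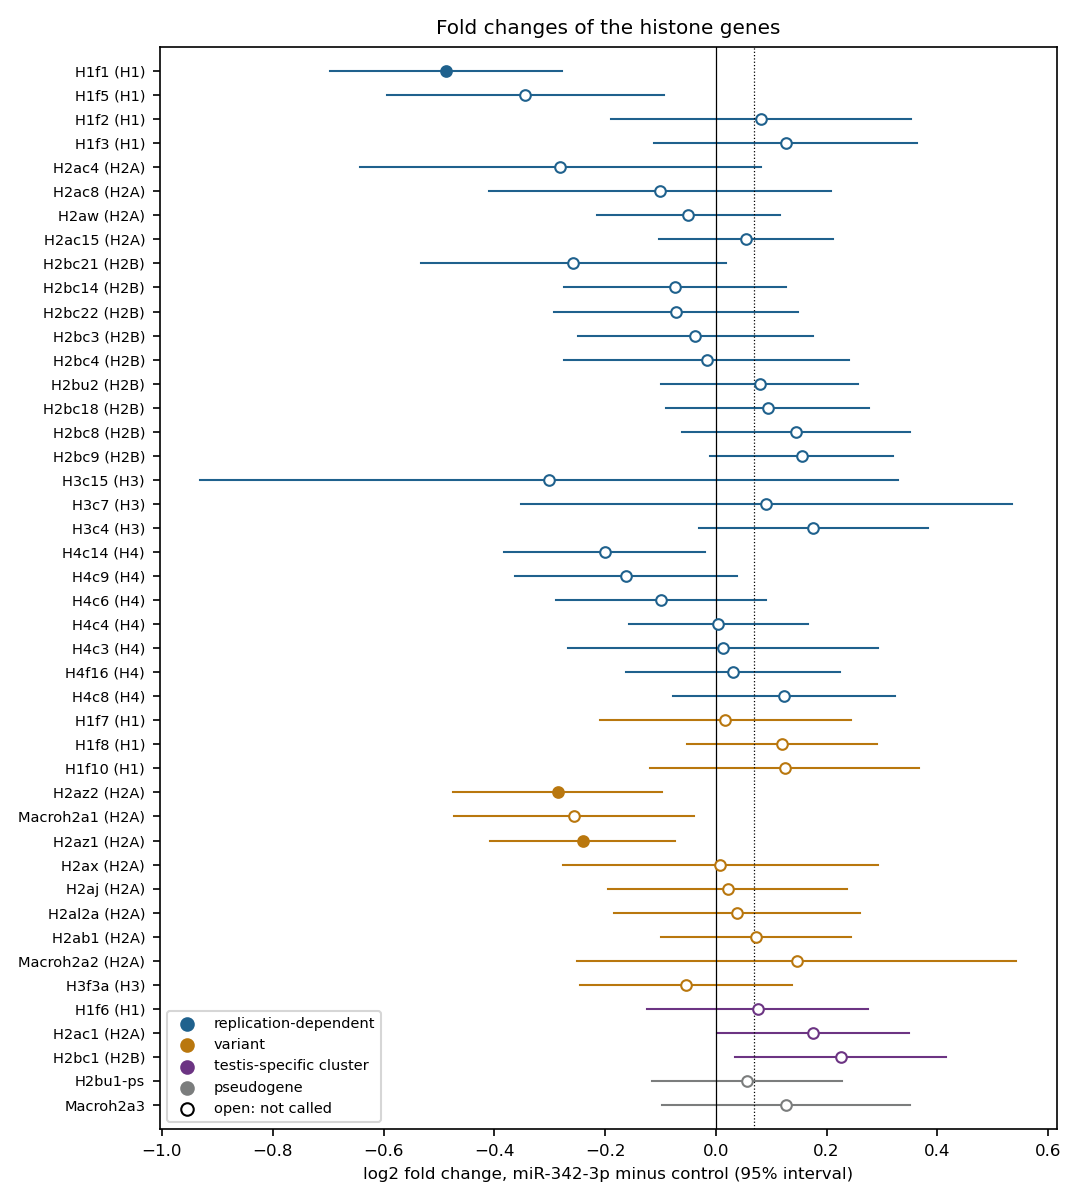
Log2 fold change (miR-342-3p minus control, horizontal axis) of each of the 44 histone genes, with its 95% interval from limma as a line, n = 3 arrays per group. Filled points were called at FDR under 0.1 and open points were not; the solid line is 0 and the dotted line the median of all genes, 0.07. The 3 filled points, H1f1, H2az2 and H2az1, all lie left of 0. They are 6.82% of the 44 genes, beside 7.42% called lower over all genes, and 0 were called higher, beside 4.14%.

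The linker histone genes held the called member of the class. H1f1 (older symbol Hist1h1a), a somatic H1 subtype of the chromosome 13 cluster, read 10.76, 10.57 and 10.80 in the controls and 10.12, 10.33 and 10.23 in the miR-342-3p arrays. All 3 mimic arrays lay below all 3 controls. The log2 fold change was −0.49 ± 0.09 (SE, n = 3 per group), which is 71.3% of the control level (95% interval 61.7% to 82.5%), with an FDR of 0.0267 by limma. The call was lost without control replicate 1 (FDR 0.143), without control replicate 3 (FDR 0.137) and with the methods' t-test (adjusted p = 0.139), while the fold change stayed between −0.56 and −0.43 over 17 alternatives.

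H1f5 (Hist1h1b), another H1 subtype of the same cluster, read 11.26, 11.20 and 11.37 in the controls and 10.70, 11.08 and 11.02 with the mimic. The groups did not overlap, but the log2 fold change of −0.34 ± 0.11 (SE) had an FDR of 0.105 by limma and was not called. Without miR-342-3p replicate 2 it passed at −0.42 (FDR 0.0742), and without miR-342-3p replicate 3 at −0.39 (FDR 0.0845). Without miR-342-3p replicate 1 it measured −0.23 (FDR 0.142), and without any 1 control its FDR was 0.228 to 0.324. H1f3 had the highest fold change of the 4 H1 genes, 0.13 with a 95% interval of −0.11 to 0.36, and H1f2 measured 0.08 with an interval of −0.19 to 0.35. Within the H1 family the 4 genes therefore ranged from −0.49 to 0.13, with 2 below and 2 above 0.

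**Figure D2:**
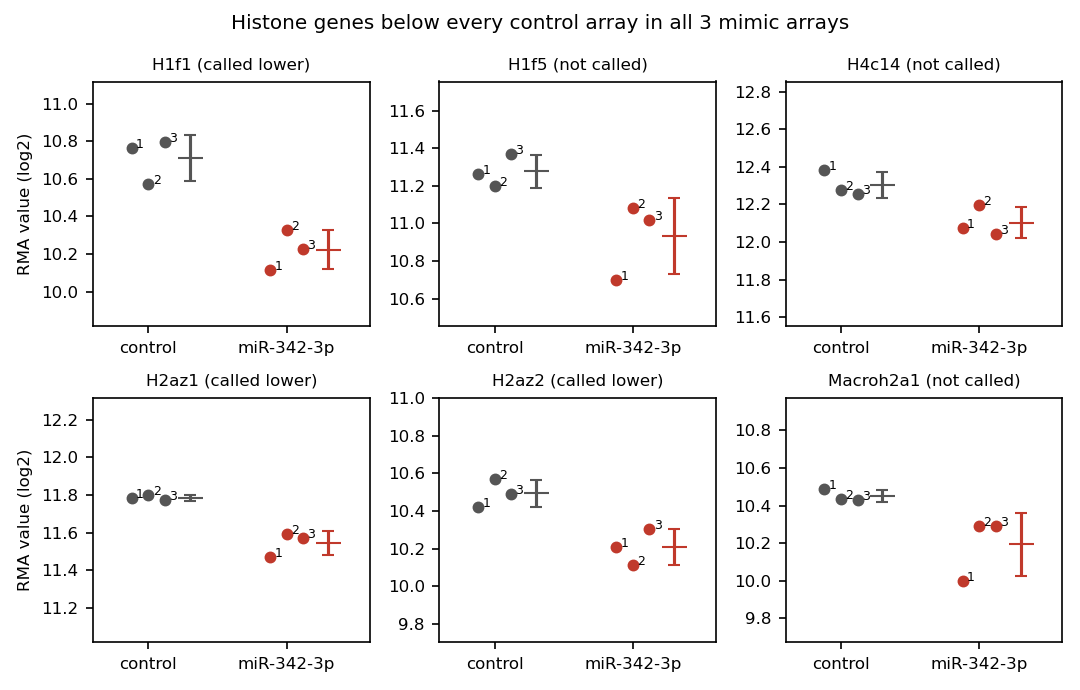
RMA values (log2, vertical axis) on each array for the 6 of 44 histone genes whose 3 mimic arrays all lay below the 3 control arrays; numbers are replicate numbers, and the bar and whiskers beside the points are the mean and SD, n = 3. Over all 19938 genes, 3083 lay below their controls in the same way. Every panel spans the same height, and the gap is widest for H1f1, at −0.49.

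Of the 23 core members of the replication-dependent class, 0 were called by limma. At an unadjusted p under 0.05, 1 was lower and 0 higher, beside 2584 and 2502 of all genes. The methods' t-test gave 1 lower and 2 higher unadjusted, beside 1955 and 2080 of all genes. Adjusted it gave 0, beside 22 and 26 of all genes. The 4 H2A genes ranged from −0.28 to 0.06. H2ac4 (Hist1h2ab) had the lowest fold change, reading 9.65, 9.74 and 9.57 in the controls and 8.96, 9.62 and 9.54 with the mimic. The mimic arrays lay at −0.69, −0.03 and −0.11 from the control mean, and the difference of −0.28 had an interval of −0.64 to 0.08 (FDR 0.285). Without miR-342-3p replicate 1 it was −0.07. H2ac15 (Hist1h2ak) had the highest and read 12.25, 12.21 and 12.24 in the controls against 12.27, 12.29 and 12.31. Its groups did not overlap, but the fold change was 0.06 (interval −0.10 to 0.21).

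The 9 H2B genes ranged from −0.26 to 0.15. H2bc21 (Hist2h2be), a chromosome 3 gene whose transcripts are known in polyadenylated as well as stem-loop form, read 7.84, 7.65 and 7.73 in the controls and 7.26, 7.74 and 7.45 with the mimic. The groups overlapped through miR-342-3p replicate 2, and the difference was −0.26 (interval −0.53 to 0.02, FDR 0.217). Without that array H2bc21 was called, at −0.38 (FDR 0.0615), and without miR-342-3p replicate 1 it measured −0.15 (FDR 0.434). H2bc9 (Hist1h2bh) was at the other end, with 11.15, 11.14 and 11.13 in the controls and 11.26, 11.37 and 11.26 with the mimic. All 3 mimic arrays were above the controls, and the fold change of 0.15 had an interval of −0.01 to 0.32 (FDR 0.217). H2bc14 (Hist1h2bm), named for its control value, measured −0.07 with an interval of −0.27 to 0.13.

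The 3 H3 genes ranged from −0.30 to 0.18. H3c15 (Hist2h3c2) read 7.40, 7.49 and 7.37 in the controls but 6.36, 7.71 and 7.29 with the mimic, so the mimic arrays fell on both sides of the controls. The mean difference of −0.30 carried an interval of −0.93 to 0.33, and it was 0.08 without miR-342-3p replicate 1 and −0.59 without replicate 2 (FDR 0.144). H3c4 (Hist1h3d), the highest fold change of the 3, read 7.73, 7.70 and 7.81 in the controls and 7.81, 8.08 and 7.87 with the mimic. The difference was 0.18 (interval −0.03 to 0.38, FDR 0.249).

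The 7 H4 genes ranged from −0.20 to 0.12. H4c14 (Hist2h4) read 12.38, 12.28 and 12.25 in the controls and 12.07, 12.19 and 12.04 with the mimic, without overlap. Its difference of −0.20 ± 0.08 (SE) had an FDR of 0.163, and without miR-342-3p replicate 2 it passed at −0.25 (FDR 0.091). H4c4 (Hist1h4d) read 13.00, 12.92 and 13.00 in the controls and 12.97, 12.96 and 12.99 with the mimic, a fold change of 0.00 with an interval of −0.16 to 0.17. H4c8 (Hist1h4h) had the highest fold change, at 0.12 (interval −0.08 to 0.32).

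By position, 20 of the 27 replication-dependent genes lie on chromosome 13, with a median log2 fold change of −0.01 and 10 members on each side of 0. The 4 genes on chromosome 3 (H2bc18, H2bc21, H3c15 and H4c14) had a median of −0.23, with 3 below 0. By array their median change from the control mean was −0.35 in miR-342-3p replicate 1, 0.09 in replicate 2 and −0.20 in replicate 3. Without miR-342-3p replicate 1 the median of the 4 was −0.04, with 2 below 0. The 2 genes on chromosome 11 and the 1 on chromosome 6 lay between −0.05 and 0.08.

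The mimic arrays differed among themselves in this class. Compared with the control mean, the median change of the 27 genes was −0.17 in miR-342-3p replicate 1, 0.14 in replicate 2 and −0.06 in replicate 3, while the control arrays stood at 0.03, −0.05 and 0.00. Among the 3 mimic arrays, replicate 2 gave the highest value for 23 of 27 genes (85.2%, against 31.9% of all genes) and replicate 1 the lowest for 22 (81.5%, against 29.5%). Of the 12 variant genes, replicate 2 was highest for 4 and replicate 1 lowest for 4. Members of the class share arrays, and those of the same family resemble each other in sequence, so these counts describe the arrays and were not tested. The median spread between the highest and lowest mimic array was 0.27 for the class and 0.27 over all genes, against 0.13 and 0.11 among the controls. Array weights fitted over all genes were lowest for miR-342-3p replicates 1 and 2 (0.235 and 0.354) and 1.69 or more for the controls.

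**Figure D3:**
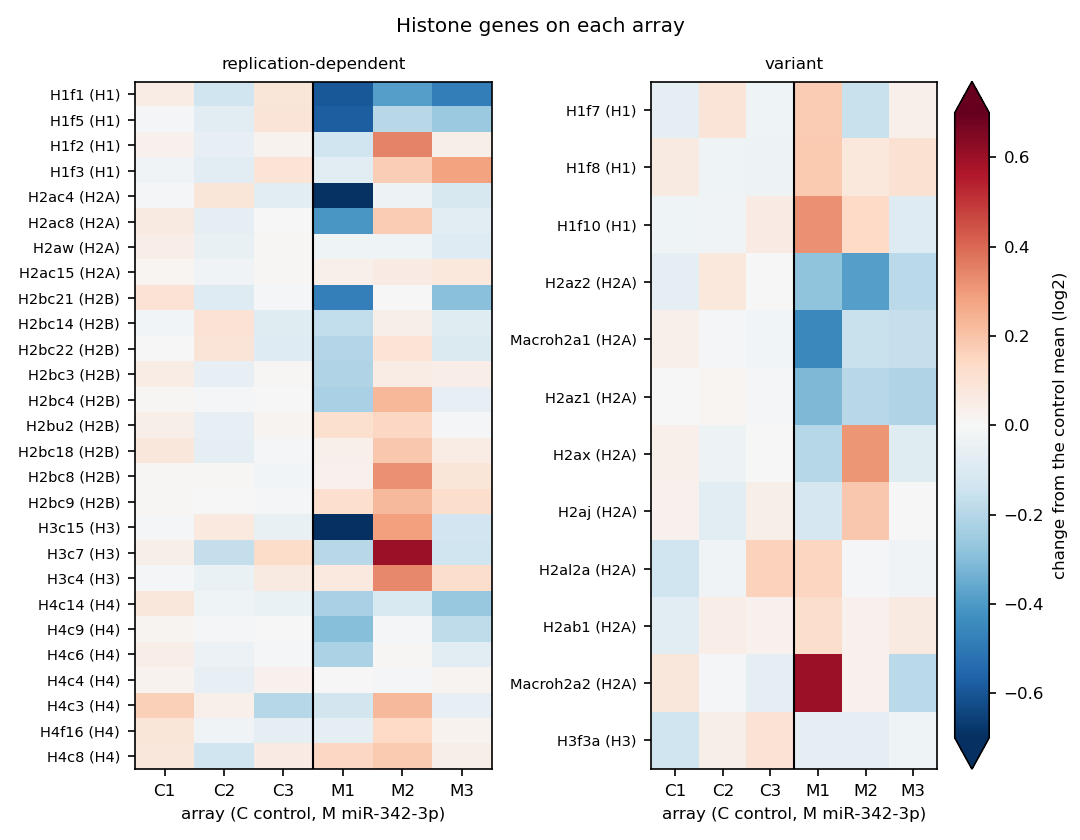
Each row is a histone gene and each column an array (C1 to C3 control, M1 to M3 miR-342-3p); colour gives the difference from the control mean in log2 units, with the scale ending at 0.7 in both directions. Among replication-dependent genes the M1 column is mostly below 0 (19 of 27) and the M2 column mostly above (8 of 27 below), while H1f1 is below 0 in all 3 mimic columns. Of all 19938 genes, 7395 are below 0 in M1 and 8320 in M2.

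Of the variant histone genes, 2 of 12 were lower and 0 higher at FDR under 0.1 by limma, beside 7.42% and 4.14% of all genes. Both are the H2A.Z genes, which encode the variant placed at promoters and enhancers. At an unadjusted p under 0.05, 3 were lower and 0 higher, beside 2584 and 2502 of all genes. The methods' t-test gave 2 lower and 0 higher unadjusted, beside 1955 and 2080 of all genes. Adjusted it gave 0, beside 22 and 26 of all genes. The limma count was 0 without any 1 of control replicates 1, 2 and 3 or without miR-342-3p replicate 1. It was 1 without miR-342-3p replicate 2 and 3 without miR-342-3p replicate 3. In the same order, the lower count over all genes was 102, 115, 140, 986, 1830 and 2422, in place of 1479. Both called genes, and 8 of the 12, were found through older symbols. Among the 4 whose current symbols match (H1f7, H1f8, H1f10 and H3f3a), 0 were called. The class median was 0.02, with 4 members below and 8 above 0, beside 7075 and 12863 of all genes. The groups did not overlap for 4 genes, 3 of them lower, beside 36.9% of all genes (3083 lower and 4265 higher).

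H2az1 (H2afz) read 11.79, 11.80 and 11.77 in the controls and 11.47, 11.59 and 11.57 with the mimic. The 3 controls spanned 0.03 and all mimic arrays were below them. The log2 fold change was −0.24 ± 0.07 (SE, n = 3 per group; FDR 0.0922 by limma), 84.6% of the control level, and a further probe set for the gene gave −0.23. H2az2 (H2afv) read 10.42, 10.57 and 10.49 against 10.21, 10.11 and 10.30, again without overlap. Its fold change was −0.29 ± 0.08 (SE; FDR 0.0815), 82.0% of the control level. Both FDR values were close to the threshold. The H2az1 call was lost without any 1 of control replicates 1, 2 and 3 (FDR 0.285 to 0.296) and without miR-342-3p replicate 1 (FDR 0.110). H2az2 was lost without any 1 of control replicates 1, 2 and 3 (FDR 0.214 to 0.290), without miR-342-3p replicate 1 (FDR 0.115) and without replicate 2 (FDR 0.106). With the arrays complete, H2az1 was also lost with centred arrays (FDR 0.128), and H2az2 with quantile normalisation repeated (FDR 0.114) and with array weights (FDR 0.110). The methods' t-test called neither (adjusted p = 0.129 for H2az1 and 0.178 for H2az2).

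Macroh2a1 (H2afy), which encodes a large H2A variant of repressed chromatin, read 10.49, 10.43 and 10.43 in the controls and 9.9999, 10.29 and 10.29 with the mimic. The groups did not overlap either, but the difference of −0.26 ± 0.10 (SE) had an FDR of 0.144 and was not called. Without miR-342-3p replicate 3 it passed at −0.30 (FDR 0.0946), and without miR-342-3p replicate 1 it measured −0.16 (FDR 0.182). Without any 1 control its FDR was 0.319 to 0.383. Macroh2a2 (H2afy2) read 6.33, 6.24 and 6.19 against 6.85, 6.28 and 6.07. That gave 0.15 with an interval of −0.25 to 0.54.

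H2ax, whose protein is phosphorylated at DNA breaks, read 9.89, 9.82 and 9.86 in the controls and 9.65, 10.16 and 9.77 with the mimic. Its mimic arrays lay on both sides of the controls, and the difference was 0.01 (interval −0.28 to 0.29). H2aj (H2afj) measured 0.02 (interval −0.19 to 0.24), and H1f10, a linker histone made outside S phase, 0.12 (interval −0.12 to 0.37). H3f3a encodes H3.3, the H3 variant laid down outside replication. Its own probe set read 6.07, 6.25 and 6.31 in the controls and 6.15, 6.14 and 6.18 with the mimic, a difference of −0.05 (interval −0.24 to 0.14). A further 4 probe sets list H3f3a together with Gm12657. These averaged 10.5 to 11.01, well above the gene's own set, and gave −0.14 to −0.11, none called. The sets that list H3f3b, the other H3.3 gene, with Gm6485 averaged 12.45 and 12.5 and gave 0.02 and 0.04.

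The other variant genes are known from germ cells. H1f7, a spermatid linker histone, measured 0.02 (interval −0.21 to 0.24), and H1f8, the oocyte linker histone, 0.12 (interval −0.05 to 0.29). H2ab1 measured 0.07 and H2al2a 0.04, both H2A variants of spermatogenesis. The cluster genes known from testis were all above 0, beside 12863 of all 19938 genes, with 0 called by limma. At an unadjusted p under 0.05, 2 were higher, beside 2502 of all genes. H2bc1 read 8.44, 8.53 and 8.47 in the controls and 8.68, 8.83 and 8.61 with the mimic, a difference of 0.23 ± 0.08 (SE; FDR 0.143). H2ac1 read 8.94, 8.89 and 8.96 against 9.16, 9.14 and 9.01, a difference of 0.18 (FDR 0.192), and H1f6 measured 0.08. The files give no detection value, so a reading for a gene that these cells may not express was not separated from background. Without miR-342-3p replicate 3 both H2bc1 (0.28, FDR 0.0751) and H2ac1 (0.22, FDR 0.0981) passed. The pseudogenes measured 0.06 (H2bu1-ps) and 0.13 (Macroh2a3).

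Many histone genes are so alike that the array's annotation assigns a probe set to several of them. There were 31 such sets with different values, of which 24 listed only histone genes, up to 20 genes each. In limma 0 were called in either direction (lowest FDR 0.271), and 0 passed an unadjusted p of 0.05. The 10 H3 sets ranged from −0.03 to 0.00 and averaged 13.04 to 13.26, where the highest value of each array was 13.5 to 13.62. The 6 H2B sets ranged from 0.07 to 0.12 and the 5 H4 sets from −0.14 to 0.00. Probe sequences were not used here, so for genes with close copies a probe set may also read the copies, and its value is uncertain as a measure of that gene. Whether values near the top of the scale were compressed was not tested.

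Histone mRNA depends on factors that transcribe it, trim its end at the stem-loop and later degrade it. Of 28 such genes measured, 6 (21.4%) were lower and 0 higher at FDR under 0.1 by limma, beside 7.42% and 4.14% of all genes, and their median log2 fold change was −0.16, beside 0.07. At an unadjusted p under 0.05, 12 were lower and 1 higher, beside 2584 and 2502 of all genes. The higher gene was Sympk, at 0.40 on a probe set averaging 6.17. Another of its sets, averaging 10.3, gave 0.06. The methods' t-test gave 12 and 0 unadjusted, beside 1955 and 2080 of all genes. Adjusted it gave 0 in either direction, beside 22 and 26 of all genes. Npat, the cyclin E/CDK2 substrate that switches on the histone clusters, read 8.66, 8.64 and 8.55 in the controls and 7.91, 7.69 and 8.50 with the mimic. It fell by 0.59 (FDR 0.0914), with the call kept in 9 of 17 alternatives and a smallest change of −0.39, with array weights. Casp8ap2 (FLASH), which takes part in histone pre-mRNA processing, fell by 1.05 with mimic values of 7.33, 6.38 and 7.98 against controls of 8.22 to 8.41 (FDR 0.0941). Without miR-342-3p replicate 2 Casp8ap2 measured −0.63 (FDR 0.0868), and its call was kept in 9 of 17 alternatives. Slbp, which binds the histone stem-loop through processing, export and translation, read 9.25, 9.25 and 9.21 in the controls and 8.59, 8.92 and 8.92 with the mimic. It fell by 0.42 (FDR 0.0503), and its probe set with the highest mean gave −0.30 (FDR 0.14). Ccne2, a cyclin E, fell by 0.46 (FDR 0.0695), Ncbp2, of the cap-binding complex, fell by 0.50 (FDR 0.0487), and Snrpg, a shared Sm protein, fell by 0.39 (FDR 0.0462). The count was 0 without any 1 of control replicates 1, 2 and 3, beside 102 to 140 lower over all genes. It was 3 without miR-342-3p replicate 1 and 9 (with 1 higher gene) without miR-342-3p replicate 3. Over all genes those settings gave 986 and 2422 lower, with 675 and 2104 higher.

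Histone chaperones and exchange factors carry histones to DNA or swap variants into nucleosomes. Of 39 measured, 11 (28.2%) were lower and 0 higher at FDR under 0.1 by limma, beside 7.42% and 4.14% of all genes, and the median was −0.21, beside 0.07. At an unadjusted p under 0.05, 19 were lower and 1 higher, beside 2584 and 2502 of all genes. The methods' t-test gave 15 and 1 unadjusted, beside 1955 and 2080 of all genes. Adjusted it gave 2 and 0, beside 22 and 26 of all genes. Cenpa is itself the H3 variant of centromeres, but its symbol lies outside the histone series used here and the variant class above leaves it out. Cenpa read 10.07, 10.09 and 10.10 in the controls and 9.33, 9.48 and 9.53 with the mimic. It fell by 0.64 (FDR 0.00933). Hat1, which acetylates new H4, read 11.57, 11.53 and 11.52 against 10.89, 10.82 and 11.20 and fell by 0.57 (FDR 0.0248). Ruvbl1, a subunit of complexes that exchange H2A.Z, fell by 0.47 (FDR 0.0163), and Nap1l1, a chaperone of H2A and H2B, fell by 0.64 (FDR 0.0362). Mms22l, of a complex that reads new H4, fell by 0.58 (FDR 0.0327). Supt16, of the FACT complex, read 9.70, 9.71 and 9.78 against 9.11, 8.48 and 9.46, with miR-342-3p replicate 2 the lowest, and fell by 0.72 (FDR 0.0786). Without that array it measured −0.45 (FDR 0.0638), and its call was kept in 10 of 17 alternatives. Without 1 control array the count of lower genes was 1 or 2 (replicate 1: 2, replicates 2 and 3: 1). Without miR-342-3p replicate 3 it was 20. Over all genes the lower count was 102 to 140 and 2422 in these settings, in place of 1479.

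Genes of S phase entry and DNA synthesis were given beside the histone genes because replication-dependent histone mRNA is known to accumulate in that phase. Of 28 measured, 23 (82.1%) were lower and 0 higher at FDR under 0.1 by limma, beside 7.42% and 4.14% of all genes. Their median was −0.36, beside 0.07, with 27 below 0, beside 7075 of all 19938 genes. At an unadjusted p under 0.05, 23 were lower and 0 higher, beside 2584 and 2502 of all genes. The methods' t-test gave 24 and 0 unadjusted, beside 1955 and 2080 of all genes. Adjusted it gave 0 in either direction, beside 22 and 26 of all genes. Pola1, the catalytic subunit of the priming polymerase, read 8.97, 8.90 and 8.96 in the controls and 7.86, 7.19 and 8.36 with the mimic and fell by 1.14 (FDR 0.0352). Prim1, the primase, fell by 0.86 (FDR 0.0173), and Gins1, of the replicative helicase, fell by 0.93 (FDR 0.0163). Pole fell by 0.57 (FDR 0.0336) and Tyms, which makes thymidylate, fell by 0.53 (FDR 0.0207). Tk1, thymidine kinase, fell by 0.67 on the probe set used (FDR 0.0119) but measured −0.28 on its other probe set (FDR 0.125). The count was 4 or 5 without 1 control array (replicate 1: 5, replicates 2 and 3: 4) and 22 without miR-342-3p replicate 3. Over all genes the lower count was 102 to 140 and 2422 in these settings, in place of 1479.

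Set side by side by array, the S phase genes lay below the controls in each mimic array, with medians of −0.46, −0.31 and −0.29 for replicates 1, 2 and 3. The replication-dependent histone genes gave −0.17, 0.14 and −0.06 on the same arrays, the variant genes 0.03, 0.01 and −0.06, and all genes 0.11, 0.04 and 0.03. Over the 9969 genes above the median level the all-gene median fold change was −0.0241, in place of 0.07. Above that level lay 24 of 27 replication-dependent, 8 of 12 variant and 28 of 28 S phase genes. So did 26 of 28 histone mRNA production and 38 of 39 chaperone and exchange genes. For 10 of 28 S phase genes the 95% interval lay above −0.5, as it did for 22 of 27 replication-dependent (81.5%) and 12 of 12 variant histone genes, beside 88.7% of all genes. The difference between these groups was not tested, since members of a group share arrays and histone genes of the same family resemble each other in sequence.

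**Figure D4:**
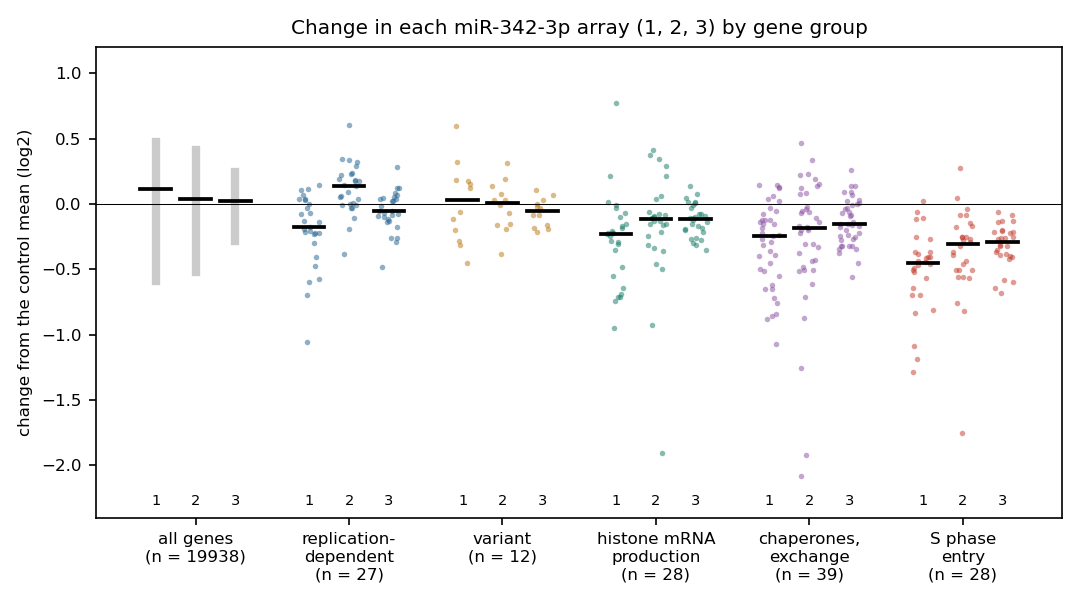
Change from the control mean (log2, vertical axis) in miR-342-3p arrays 1, 2 and 3 for each gene group; points are genes, black bars are medians, and the grey bars for all genes span the 5th to 95th percentile. The S phase entry medians lie between −0.46 and −0.29, and the replication-dependent histone medians between −0.17 and 0.14.

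Over the whole table, 1479 genes were lower and 825 higher, and 64.2% of calls were lower. With arrays centred on their medians the split was 1384 and 408 (77.2% lower), and with quantile normalisation repeated it was 1422 and 1826 (43.8% lower). Of 10 macrophage markers, Fcgr1 and Itgam were lower and Spi1 higher, and their mean level was 10.56 to 10.59 in the controls and 10.4 to 10.59 with the mimic. Of 10 fibroblast markers 1, Pdgfra, was higher (mean level 6.36 to 6.39 in controls, 6.41 to 6.63 with the mimic), and of 9 lymphocyte markers 0 were called (1 higher at an unadjusted p under 0.05; 5.75 to 5.83 and 5.78 to 6.08). Their part in the histone results was not tested.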

How the data were processed

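Total RNA (150 ng) from 6 RAW264.7 samples was hybridised to 1 array each. The deposited values are log2 expression values that the authors made by RMA, without counts or detection values, so the number of arrays limits the precision. Of 35556 probe sets, 21789 list 1 gene, 1621 several and 12146 none. Older symbols came from RefSeq (GRCm38.p6; 21698 Entrez IDs matched), a choice made after the array's symbols were seen. Each of 19938 genes kept its probe set with the largest interquartile range. limma 3.58.1 (R 4.3.3; lmFit, eBayes, no covariate) was fitted over all genes, called at Benjamini-Hochberg FDR under 0.1 and tested on simulated data. Plots used matplotlib 3.10.9.

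The members and lists were chosen with earlier results of these data known. Named genes are every called, variant or testis-known histone gene, the largest rise and fall and highest control value of each replication-dependent family (control values of different probe sets do not order transcript amounts), and up to 6 called genes per pathway list. H1f2, the pseudogenes, Sympk and, by position, H2bc18 were added after their values were seen. Alternatives were the replicate block, each array left out, other probe sets, a level filter, 2 scalings, weights for the arrays, a trended robust prior, a stricter FDR, the methods' t-test (named in the study's general statistics, which used limma for arrays; Benjamini-Hochberg was added here), probe sets of several histone genes, and current symbols only (chosen after seeing the data).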

Additional observations from a re-analysis of the deposited data

How the results depend on the processing

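The replicate numbers were checked for pairing. Deviations from the group means correlated at −0.308, −0.163 and −0.106 for same-numbered arrays and at −0.07 to 0.23 for different numbers. These values gave no sign of pairing by number. They cannot exclude it, since deviations from a mean of 3 arrays depend on each other. With the replicate block, 1 replication-dependent gene was lower as before, 0 variant genes were lower in place of 2 (H2az1 FDR 0.215, H2az2 FDR 0.158), 1 histone mRNA production gene was higher in place of 0, and 15 S phase genes were lower in place of 23.

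Leaving out each array in turn gave 0 to 5 lower replication-dependent genes, 0 to 3 lower variant genes, 0 to 9 lower and 0 to 1 higher histone mRNA production genes, 1 to 20 lower and 0 to 1 higher chaperone and exchange genes, and 4 to 23 lower S phase genes. The 5 replication-dependent genes, without miR-342-3p replicate 2, were H1f1, H1f5, H2bc21, H4c14 and H4c9. Over all genes the calls fell from 1479 to between 102 and 140 lower when 1 control array was left out. Without miR-342-3p replicates 1, 2 and 3 in turn they were 986, 1830 and 2422 lower. The median log2 fold change of the variant genes ranged from −0.03345 (without miR-342-3p replicate 1) to 0.0445 (without miR-342-3p replicate 3) and that of the replication-dependent genes from −0.09 to 0.06.

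Over all genes, lower calls numbered 1952 of 9969 among genes above the median level and 1763 of 19938 with the trended robust prior. They numbered 1422 with quantile normalisation repeated (1826 higher) and 22 with the methods' t-test (26 higher). For replication-dependent genes the count of lower calls was 3 of 24 above the median level and 3 of 27 with the trended prior. It was 2 with quantile normalisation repeated (where H2bc9 made 1 higher call) and 0 with the methods' t-test. For variant genes it was 1 with centred arrays, repeated quantile normalisation or array weights, and 0 with the methods' t-test, at FDR under 0.05, or with current symbols only, where the median was 0.0683. Over all genes, lower calls numbered 1384 with centred arrays, 1340 with array weights and 661 at FDR under 0.05. Lower histone mRNA production genes numbered 11 of 26 above the median level, 10 of 28 with the trended prior and 0 with the t-test. Lower chaperone and exchange genes numbered 17 of 38 above the median level and 2 of 39 with the t-test. In this list 1 gene was higher above the median level, with repeated quantile normalisation and with array weights. Those settings called 1086, 1826 and 748 of all genes higher. The t-test called 0 S phase genes. Taking other probe sets of a gene, or adding 19 probe sets that list several histone genes, left every class and list count within 1.5 times. No called result reversed direction, while class medians close to 0 changed sign: that of the replication-dependent genes without miR-342-3p replicate 1 (0.06), with repeated quantile normalisation (0.009144) and with array weights (0.007841), and that of the variant genes without miR-342-3p replicate 1 (−0.03345), with centred arrays (−0.009687) and with array weights (−0.003506). The cause of these moves was not tested. Of 1045 comparisons of a single gene under an alternative, 932 stayed on their side of the threshold, 96 lost a call and 17 gained one. H1f1 kept its call in 14 of 17 alternatives, H2az1 in 9 and H2az2 in 7. H1f1 and H2az2 have 1 probe set each, so the alternatives of other probe sets could not change their values.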
